A study of Drosophila melanogaster with 23 samples.

Results

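The Bithorax complex is the cluster of homeotic genes that assigns identity to the posterior body segments of the fly. Its 3 protein-coding members encode homeodomain transcription factors. Ubx acts in the posterior thorax and anterior abdomen, abd-A in the middle abdomen, and Abd-B in the posterior abdomen and genitalia. Long regulatory domains lie between the genes, and insulator elements separate these domains so that each gene stays restricted to its segments. Where the genes are off, Polycomb group proteins keep them silent, and in such nuclei the complex is known to meet the Antennapedia complex, the cluster of anterior homeotic genes on the same chromosome arm.

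The locus was taken as the 10-kb bins of arm 3R from 16600001 to 17020000 (dm6), which gave 42 of the 13256 bins of the 5 main arms, and all 42 were usable. In the order along the arm it holds Ubx (16656623 to 16734426), abd-A (16807214 to 16830049) and Abd-B (16927212 to 16972236), all on the minus strand, so that each gene starts at its higher coordinate. The bins of each gene and the stretches before, between and after them were followed separately, with 500-kb flanks on both sides. Contact with the Antennapedia complex was read over the 45 bins from 6600001 to 7050000, where the starts of the complexes are 10 Mb apart.

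Genome-wide chromosome conformation capture (Hi-C), which counts ligations between DNA fragments that lay close together in the nucleus, was made after DpnII digestion in 23 libraries. S2 cells, a cultured Drosophila line, received double-stranded RNA against HP1 (S2 dsRNA 1 and S2 dsRNA 2, 2 libraries each, made to separate exons) or against GST (S2 control, 2 libraries). HP1 is heterochromatin protein 1, which binds methylated lysine 9 of histone H3. Embryos at zygotic genome activation (stage 5, laid for 1 h, aged for 2 h and sorted by hand) came from mothers with a short hairpin RNA against HP1 (HP1-KD, Bloomington #33400, 5 libraries), from such mothers that also carried pUASP::Flag-HA-HP1 (HP1-rescue, 3 libraries), from mothers with pUASP::H3.3K9M, a histone whose lysine 9 is replaced by methionine (H3K9M, 2 libraries), and from control mothers (Bloomington #36303, 7 libraries). The hairpin and both transgenes were driven in the female germ line by 1 Gal4 driver (Bloomington #7063), and HP1-KD and HP1-rescue embryos share an inversion on arm 2L. The paper describes the embryo knockdown as partial, with residual HP1. It reports that only a small share of HP1-KD embryos reached zygotic genome activation. RNA was not measured in these libraries, so the labelled embryos and cells could not be checked against marker genes, and nuclei of different body segments were mixed.

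The deposited signal was 1 corrected contact map per group with its libraries pooled, so every comparison below sets 1 map against 1 map, no test was possible, and intervals cover counting error only. The maps held between 34784731 whole contacts (S2 control) and 299715806 (control embryos). Inside the locus, at distances of 20 kb and more, there were 38418, 45356 and 32531 contacts in S2 dsRNA 1, S2 dsRNA 2 and S2 control, and 171851, 55937, 61109 and 269686 in HP1-KD, HP1-rescue, H3K9M and control embryos. Levels are given as observed over expected contact, the mean corrected contact of a set of bin pairs over the mean of all pairs of 3R at the same distances, so that 1 is the level of the arm.

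The sequences before the annotated starts of the 3 genes are shown because contact between the genes, and a boundary at the Abd-B start, are measured below. Each run is the 250 bases upstream of the gene's outermost start in RefSeq (Release 6, the dm6 sequence), read 5′ to 3′ on the minus strand: chr3R:16734427-16734676 for Ubx, chr3R:16830050-16830299 for abd-A and chr3R:16972237-16972486 for Abd-B. Capitals mark GAGAGAG, the repeat that GAGA factor binds. GAGA factor, encoded by Trl, is known to act at Polycomb response elements and promoters of homeotic genes.
Ubx promoter: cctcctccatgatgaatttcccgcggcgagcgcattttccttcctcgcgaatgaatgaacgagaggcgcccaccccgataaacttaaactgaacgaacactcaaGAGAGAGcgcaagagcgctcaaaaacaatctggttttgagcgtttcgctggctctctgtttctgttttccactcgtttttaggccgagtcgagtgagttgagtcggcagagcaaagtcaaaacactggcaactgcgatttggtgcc
abd-A promoter: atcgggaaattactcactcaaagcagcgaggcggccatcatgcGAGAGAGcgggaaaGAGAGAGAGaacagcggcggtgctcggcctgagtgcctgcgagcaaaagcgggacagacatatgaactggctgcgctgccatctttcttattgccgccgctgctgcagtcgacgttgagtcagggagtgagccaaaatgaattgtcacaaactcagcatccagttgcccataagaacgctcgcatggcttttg
Abd-B promoter: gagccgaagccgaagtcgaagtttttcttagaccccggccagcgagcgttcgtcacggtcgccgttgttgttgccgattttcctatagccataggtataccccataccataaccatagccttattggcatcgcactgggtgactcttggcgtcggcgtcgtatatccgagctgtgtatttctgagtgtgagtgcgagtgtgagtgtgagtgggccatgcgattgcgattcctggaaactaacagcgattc
The Ubx run holds 1 match and the abd-A run 3, of which a pair overlap, while the Abd-B run holds none. The repeat stood in 5.56% of the 3398 promoter windows of 3R, counted on both strands. AGNNGGCGC, the core of the motif of the insulator protein CTCF, stood in 2.59% of these windows, and CAGGTAG, the motif of the early activator Zelda, in 1.71%; neither was found in the 3 windows.

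CTCF is the insulator protein best known from the boundaries of the Abd-B regulatory domains. Over the whole locus its core motif was found 38 times, in 23 of 42 bins (54.8%), against 61.5% of the bins of 3R. The Zelda motif stood in 50.0% of the bins of the locus, against 40.8% of the bins of 3R, and GAGAGAG in 69.0%, against 63.8%. The shares in the locus thus lay within 10 points of those of the arm. The CTCF core matches that fell in bins called as boundaries below are shown in capitals with 15 bases on either side; both Ubx runs lie in the coding sequence of the gene (chr3R:16658825-16658863 and chr3R:16658939-16658977, minus strand), and the bxd run in an intron or between exons of lncRNA:bxd, a non-coding transcript of the Ubx regulatory domain (chr3R:16748716-16748754, plus strand).
Ubx match towards the gene's end: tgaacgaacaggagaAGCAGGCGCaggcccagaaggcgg
Ubx match towards the gene's start: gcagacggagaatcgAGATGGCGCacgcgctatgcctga
bxd match: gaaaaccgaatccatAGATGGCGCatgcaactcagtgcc
The other 4 bins called as boundaries in control embryos or S2 control held no such match, which says only that these letters are not in those bins.

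Contact inside the locus differed most between S2 cells and embryos. Its mean observed over expected contact over 820 bin pairs was 1.60 in S2 dsRNA 1, 1.70 in S2 dsRNA 2 and 1.59 in S2 control. In embryos it was 1.05 in HP1-KD, 0.970 in HP1-rescue, 0.944 in H3K9M and 0.878 in control. All S2 maps thus lay above all embryo maps, and control embryos were below the level of the arm. S2 control was higher than control embryos by 0.85 on the log2 scale (95% counting interval 0.83 to 0.88). Of 2621 other windows of 42 bins on 3R, which overlap each other, 9 changed by more (0.343%). The locus stood near the top of the arm in S2 control, where 184 of these windows were higher (7.02%). In control embryos it stood somewhat below their median of 0.952, and 1572 were higher (60.0%). The Antennapedia complex moved the same way, with 1.31 in S2 control and 0.795 in control embryos.

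**Figure D1:**
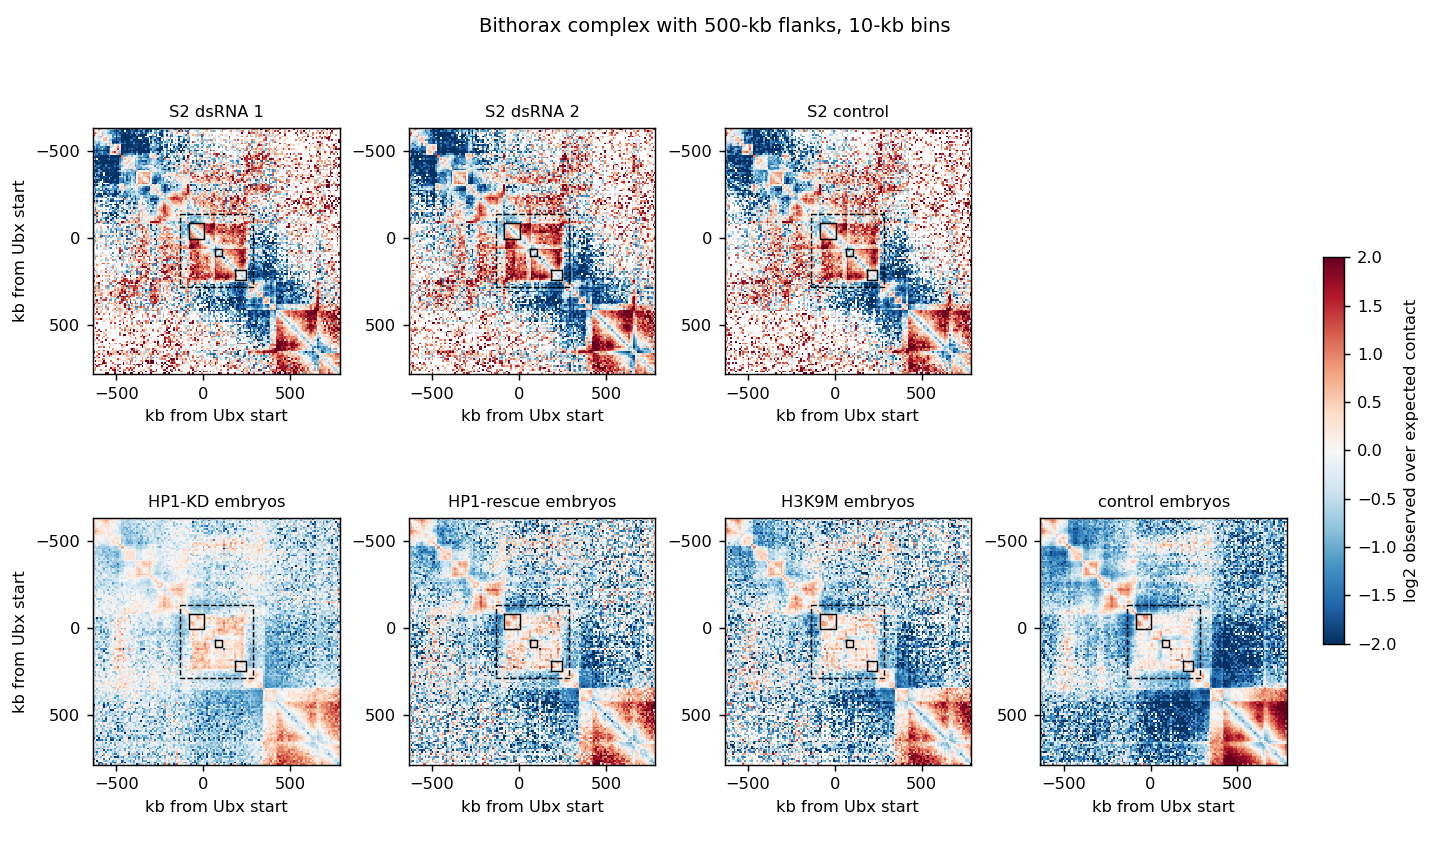
Observed over expected contact (log2 colour scale) between 10-kb bins of the Bithorax complex and its 500-kb flanks in the 7 maps, with both axes in kb from the Ubx start (dashed box, the locus; solid boxes, the 3 genes). In S2 maps the block from Ubx to Abd-B stands above the level of the arm between its genes (1.77 to 3.35). Contact of Ubx and Abd-B with the stretches just outside them is below it (0.319 to 0.716). The whole locus averages 1.59 to 1.70 in S2 maps, against 0.878 in control embryos.

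The gain in S2 cells depended on distance. Between pairs 20 to 40 kb apart, S2 control had 1.10 and control embryos 1.08. At 50 to 90 kb the values were 1.57 in S2 control and 0.881 in control embryos, at 100 to 190 kb they were 1.85 and 0.855, and at 200 to 410 kb they were 1.55 and 0.810. The log2 difference was therefore 0.031 at the shortest distances and peaked at 1.11 between 100 and 190 kb.

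The 4 embryo maps lay closer together. HP1-KD was above control by 0.26 (0.24 to 0.28), HP1-rescue by 0.14 (0.12 to 0.17) and H3K9M by 0.10 (0.079 to 0.13), all on the log2 scale. Without balancing these were 0.31, 0.060 and 0.18, so that the order of HP1-rescue and H3K9M turned. Each balanced value exceeds its counting error, but 386, 342 and 384 of the 2621 other windows of 3R changed by more in the same direction. HP1-KD therefore had the highest contact of the embryo maps without standing apart from the arm. Before division by the expected level, the corrected contact of the locus in HP1-KD embryos was lower than in control at 20 to 40 kb (log2 -0.37) and higher at 200 to 410 kb (0.76), and the arm as a whole moved by -0.38 and 0.46 over the same distances. In S2 cells, dsRNA 1 differed from S2 control by 0.011 (-0.026 to 0.049), within counting error, and dsRNA 2 by 0.098 (0.062 to 0.13). Without balancing, these S2 values were -0.12 and -0.015.

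Split by gene, contact within each member overlapped between S2 cells and embryos, and contact between the genes did not. The bins of Ubx, abd-A and Abd-B span 90, 40 and 60 kb, so pairs within a gene are few and mostly closer than pairs between genes. At 20 to 40 kb the whole locus also differed little, with 1.10 in S2 control and 1.08 in control embryos. Whether distance accounts for the split was not tested. Ubx with itself had 1.47, 1.42 and 1.39 in S2 dsRNA 1, S2 dsRNA 2 and S2 control, and 1.26, 1.36, 1.34 and 1.41 in HP1-KD, HP1-rescue, H3K9M and control embryos. The values within abd-A ran from 1.34 to 1.53 over the 7 maps, and those within Abd-B from 1.14 to 1.40. HP1-KD had the lowest value of the 7 maps within each of the 3 genes, with log2 ratios to control embryos of -0.16 ± 0.030 (Ubx), -0.18 ± 0.055 (abd-A) and -0.12 ± 0.043 (Abd-B), given with their counting half-widths.

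Contact between abd-A and Abd-B, which pattern adjoining parts of the abdomen, showed the widest gap between cell sources among the 3 pairs of genes. It was 3.01 in S2 dsRNA 1, 3.35 in S2 dsRNA 2 and 3.04 in S2 control (1322, 1621 and 1189 contacts), against 1.26 in HP1-KD, 1.23 in HP1-rescue, 1.08 in H3K9M and 1.10 in control embryos (3636, 1105, 1070 and 4580 contacts). S2 control was higher than control embryos by 1.47 ± 0.10 (log2, counting half-width). Ubx with Abd-B, the members farthest apart, had 2.50, 2.95 and 2.45 in S2 dsRNA 1, S2 dsRNA 2 and S2 control, and 1.33, 1.23, 1.16 and 1.09 in HP1-KD, HP1-rescue, H3K9M and control embryos. Ubx with abd-A had 1.85, 1.94 and 1.77 in the S2 maps in the same order, and 1.25, 1.06, 1.06 and 0.963 in the embryo maps. For all 3 pairs of genes the lowest S2 map was above the highest embryo map.

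Among embryos the HP1-KD map was the highest for each pair of genes. Its log2 ratio to control was 0.38 ± 0.059 for Ubx with abd-A, 0.29 ± 0.081 for Ubx with Abd-B and 0.19 ± 0.070 for abd-A with Abd-B. HP1-rescue had 0.14 ± 0.094, 0.17 ± 0.13 and 0.17 ± 0.11 for the same pairs, and H3K9M had 0.14 ± 0.091, 0.091 ± 0.12 and -0.022 ± 0.11. The HP1-KD and HP1-rescue values exceeded counting error for all 3 pairs, and of the H3K9M values 1 of 3 did. In S2 dsRNA 2, Ubx with Abd-B was 0.27 ± 0.17 above S2 control, whereas S2 dsRNA 1 differed by 0.030 ± 0.18.

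**Figure D2:**
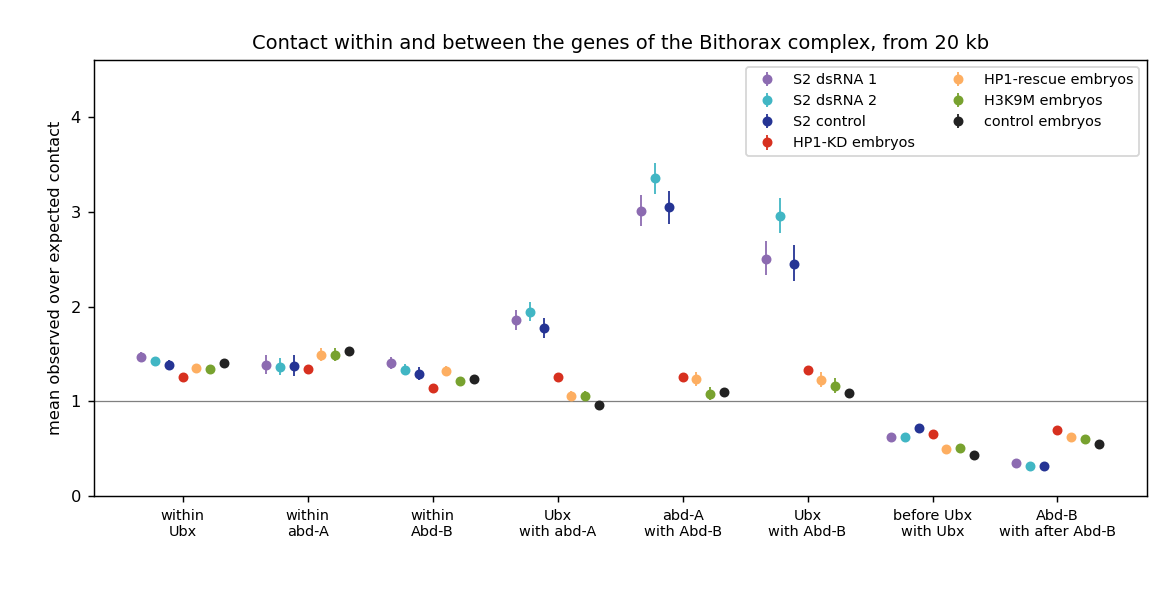
Mean observed over expected contact (y axis) within and between Ubx, abd-A and Abd-B and with the stretches just outside them, for pairs at 20 kb and more, as points for the 7 maps with 95% Poisson intervals of the contact counts. The S2 maps stand apart for the pairs of genes, most for abd-A with Abd-B (3.01 to 3.35, against 1.08 to 1.26 in embryos), while the values within each gene, at mostly shorter distances, overlap.

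Contact of Ubx and Abd-B with the stretches just outside the gene cluster was below the level of the arm in every map. From Ubx to the 50 kb on its 3′ side (labelled before Ubx in the plot of gene contacts), which holds the adhesion gene Fas1 and the chaperonin gene CCT3, it was 0.622, 0.621 and 0.716 in S2 dsRNA 1, S2 dsRNA 2 and S2 control, and 0.661, 0.494, 0.512 and 0.439 in HP1-KD, HP1-rescue, H3K9M and control embryos. The HP1-KD value was above control by 0.59 ± 0.042 (log2), the widest of its gaps from control among the stretches described here. From Abd-B to the 40 kb beyond its start (labelled after Abd-B) it was 0.354, 0.319 and 0.321 in the S2 maps, and 0.698, 0.625, 0.606 and 0.554 in the embryo maps. The ends thus ranked in opposite ways, with S2 control above control embryos on the Ubx side (0.71 ± 0.088) and below them on the Abd-B side (-0.79 ± 0.13).

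The stretch on the 3′ side of Ubx was also a place where both dsRNA maps differed from S2 control by more than counting error. Its log2 contact with Ubx relative to S2 control was -0.20 ± 0.12 in S2 dsRNA 1 and -0.21 ± 0.11 in S2 dsRNA 2, and its contact with abd-A was 0.804 and 0.847, against 1.08 in S2 control (210, 234 and 244 contacts). Its contact with Abd-B, over 195, 232 and 170 contacts, was 1.34 and 1.47, against 1.31 in S2 control, and did not differ beyond counting error.

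Boundaries inside the locus were read from an insulation score, the log2 mean contact across a bin within 100 kb over the median of the bins of the arm, which is low where contact is cut off. A boundary is a minimum with a prominence of at least 0.2, and its depth is how far the score lies below the mean of the scores 100 kb to either side. The 3′ end of Ubx was a boundary in all 7 maps, at bins 16640001 to 16650000 or 16650001 to 16660000, where nonA-l, CCT3 and modSP lie beside the Ubx end. At the 16650001 bin the depth was 1.34, 1.44 and 1.15 in S2 dsRNA 1, S2 dsRNA 2 and S2 control, and 0.906, 1.33, 1.30 and 1.45 in HP1-KD, HP1-rescue, H3K9M and control embryos. HP1-KD embryos thus had the shallowest boundary at this end.

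The other end lay 1 bin apart in the cell sources. In the 4 embryo maps the minimum was at 16970001 to 16980000, the bin that holds the Abd-B start, and in the 3 S2 maps at 16980001 to 16990000, over AhcyL2 and CG18622. At the S2 position the depth was 1.51, 1.69 and 1.68 in S2 dsRNA 1, S2 dsRNA 2 and S2 control, and 0.040, -0.042, -0.019 and -0.046 in HP1-KD, HP1-rescue, H3K9M and control embryos. At the embryo position it was 1.21, 1.28 and 1.26 in the S2 maps and 0.195, 0.204, 0.211 and 0.200 in the embryo maps. Depth here depends on a second strong minimum in the flank, at the bin 100 kb further (17070001 to 17080000), where the score was -1.13 in S2 control and -1.52 in control embryos. The score of the Abd-B end itself was -1.25 in S2 control and -0.89 in control embryos at the embryo position, and the prominence of the call was 2.84 in S2 control and 0.689 in control embryos.

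A boundary within the cluster, at the abd-A 3′ end (16800001 to 16810000), was called in 5 maps. Its depth was 0.510, 0.453 and 0.484 in S2 dsRNA 1, S2 dsRNA 2 and S2 control, and -0.14, 0.060, 0.070 and 0.23 in HP1-KD, HP1-rescue, H3K9M and control embryos. HP1-KD and H3K9M were the maps without a call there. A further minimum over lncRNA:bxd (16740001 to 16750000), the bin of the bxd match printed above, was called only in control embryos, with a prominence of 0.21, just past the threshold, and a depth of -0.47. Its score there was -0.10, against -1.17 at the Ubx-end boundary 100 kb away on 1 side and 0.030 on the other. Over the 6 bins called in control embryos or S2 control, the mean depth was lower in HP1-KD (0.256) than in control embryos (0.468), a difference of -0.21 ± 0.015 (counting half-width). At the 4 boundaries called in control embryos it was 0.147 in HP1-KD and 0.352 in control, while the 173 boundaries called on the rest of 3R averaged 0.389 in HP1-KD and 0.760 in control.

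**Figure D3:**
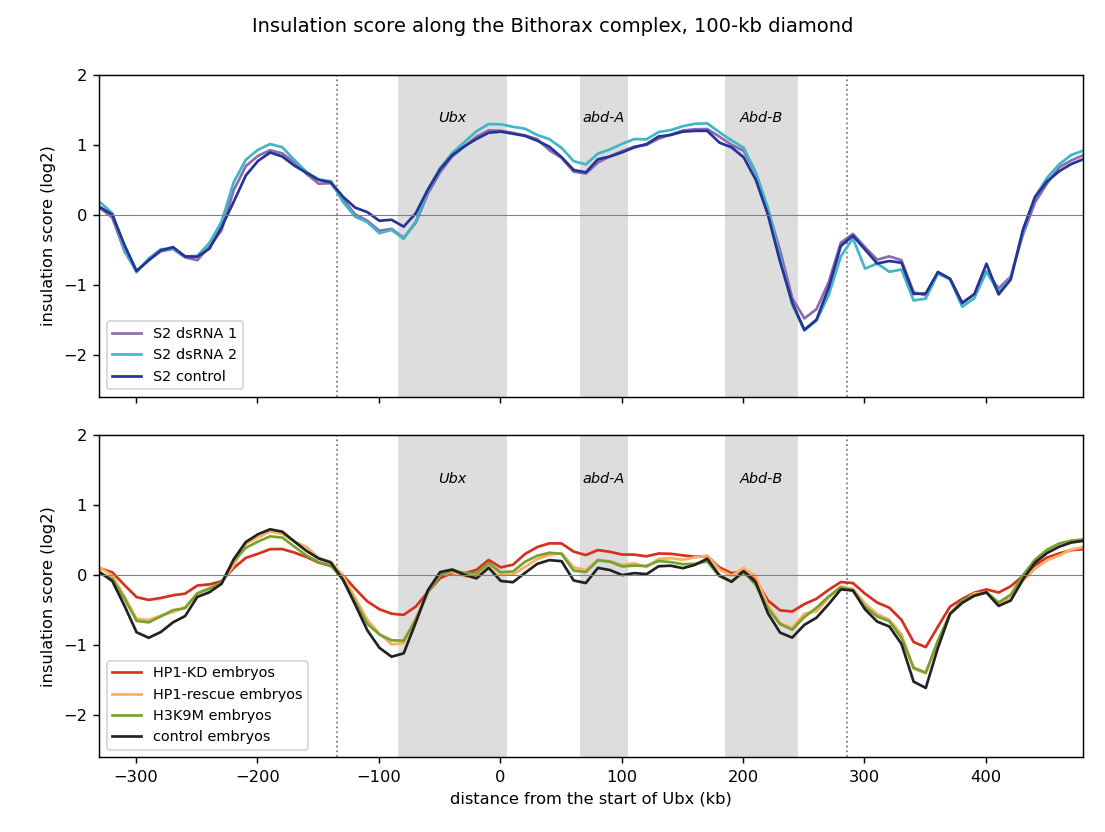
Insulation score (log2, y axis) of each 10-kb bin across the locus and its flanks, by distance from the Ubx start in kb (x axis), for the S2 maps (upper panel) and the embryo maps (lower panel), with the genes shaded and the ends of the locus dotted. All maps fall at the 3′ end of Ubx, and the S2 maps fall to -1.48, -1.65 and -1.64 just past the Abd-B start, where control embryos lie at -0.71.

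Few bins of the locus changed score between treatments. In HP1-KD embryos 3 of 42 bins (7.14%) differed from control by more than 0.5, against 6.51% of all 11439 scored bins, which is the background share. All 3 were higher, as were 721 of the 745 scored bins past this change. They adjoined each other at the 3′ end of Ubx (16630001 to 16660000, by 0.55, 0.61 and 0.55). None of the 42 passed in HP1-rescue over control (0.201% of all bins), H3K9M over control (0.219%), S2 dsRNA 1 over S2 control (0.271%) or S2 dsRNA 2 over S2 control (0.367%). Between S2 control and control embryos, 38 of 42 bins passed (90.5%), 35 higher and 3 lower, against 23.5% of all bins. Scores of neighbouring bins share most of their bin pairs, so these counts are not of separate changes. With a 50-kb square in place of 100 kb, 25 of 42 passed, against 24.0% of all bins. The bin between Ubx and bxd (16730001 to 16740000) had the highest change at 1.27, and the 3 lower bins lay past the Abd-B start (16980001 to 17010000).

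The locus was separated from its flanks in every map, and the sides differed. Isolation, the log2 ratio of contact inside the locus to contact with both flanks, was 0.81, 0.90 and 0.78 in S2 dsRNA 1, S2 dsRNA 2 and S2 control, and 0.50, 0.58, 0.58 and 0.65 in HP1-KD, HP1-rescue, H3K9M and control embryos. Medians over 484 other windows of 3R were between -0.063 and 0.014. Of these windows, 45, 37 and 46 were more isolated than the locus in S2 dsRNA 1, S2 dsRNA 2 and S2 control. In HP1-KD, HP1-rescue, H3K9M and control embryos 20, 31, 34 and 41 were. With the 500 kb towards the centromere, the locus had 1.31, 1.34 and 1.36 in the S2 maps, above the level of the arm, and 0.853, 0.779, 0.769 and 0.712 in the embryo maps. With the 500 kb towards the telomere it had 0.517, 0.487 and 0.493 in the S2 maps, and 0.636, 0.521, 0.497 and 0.409 in the embryo maps. In S2 cells the locus thus met the flank towards the centromere more than the arm average and the flank towards the telomere less. Relative to control embryos, isolation differed by -0.15 ± 0.025 (HP1-KD), -0.071 ± 0.040 (HP1-rescue) and -0.071 ± 0.039 (H3K9M). The other windows of 3R also spread less in these maps. Their 95% quantile was 0.443, 0.652 and 0.703 in HP1-KD, HP1-rescue and H3K9M, against 0.849 in control embryos. The lower isolation is thus not particular to the locus. Without balancing the HP1-KD difference was -0.033 and the H3K9M difference 0.013, and at equal depth the HP1-rescue and H3K9M differences were -0.14 and -0.12.

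Contact with the Antennapedia complex was above the level of the arm in embryos and near that level in S2 cells. Over 1890 bin pairs at 9.56 to 10.41 Mb, the observed over expected contact was 3.09 in HP1-KD, 2.68 in HP1-rescue, 2.81 in H3K9M and 2.38 in control embryos, from 2830, 623, 823 and 2687 contacts. None of 1570 other pairs of windows of these sizes at this separation on 3R, which overlap each other, reached these values; the highest were 1.59, 2.04, 1.83 and 1.98. In S2 dsRNA 1, S2 dsRNA 2 and S2 control the values were 0.929, 1.03 and 0.899, from 196, 233 and 163 contacts, and 1115, 627 and 1174 of the other pairs were higher. S2 control over control embryos was -1.41 on the log2 scale (interval -1.66 to -1.15), a larger fall than in any of the 1570 other pairs. With the expected level taken from windows moved by 500 kb, it was -0.93. The S2 maps averaged about 1 contact for every 10 bin pairs here, so their values carry wide intervals, but each upper limit lies below every embryo value.

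**Figure D4:**
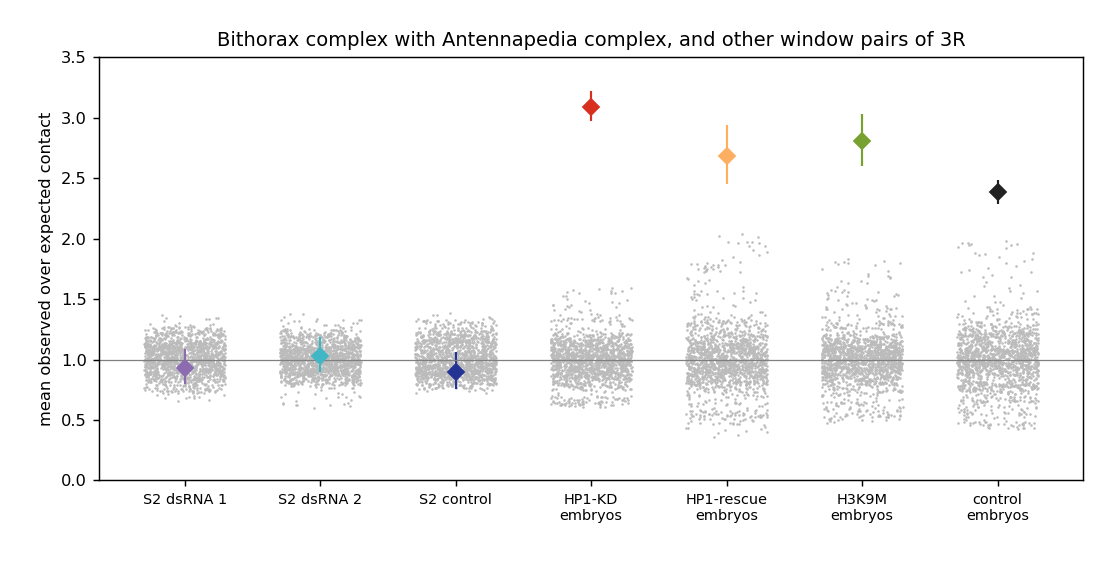
Mean observed over expected contact (y axis) between the Bithorax and Antennapedia complexes in the 7 maps (diamonds, with 95% counting intervals) and of 1570 other window pairs of 3R at the same separation (grey points). The embryo diamonds (2.38 to 3.09) lie above all grey points of their maps, and the S2 diamonds (0.899 to 1.03) lie among them.

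HP1-KD embryos had more of this contact than control embryos, by 0.37 (interval 0.29 to 0.46, log2), H3K9M by 0.24 (0.11 to 0.36) and HP1-rescue by 0.17 (0.027 to 0.32). Of the 1570 other window pairs, 108, 129 and 193 rose by more in HP1-KD, H3K9M and HP1-rescue. The HP1-rescue gain was 0.0031 without balancing. In S2 cells the differences were 0.048 (-0.28 to 0.38) for dsRNA 1 and 0.19 (-0.12 to 0.51) for dsRNA 2, both within counting error.

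The contact covered the whole gene cluster. Over the stretches that run through the 500-kb flanks, it was lower past the Abd-B start than past the Ubx 3′ end. Of the 33 bins from Ubx to Abd-B, 33 in HP1-KD, 29 in HP1-rescue, 33 in H3K9M and 33 in control embryos reached 1.5 with the Antennapedia complex, and 5, 5 and 2 did in S2 dsRNA 1, S2 dsRNA 2 and S2 control. Among the 54 bins past the Abd-B start, 5, 6, 9 and 3 did in the same embryo maps, with medians of 0.890, 0.976, 0.944 and 0.853, and among the 55 bins past the Ubx 3′ end, 13, 13, 16 and 14 did, with medians of 1.33, 1.15, 1.34 and 1.25. By segment, abd-A had the highest value in HP1-KD, H3K9M and control embryos, with 4.49 ± 0.45, 4.03 ± 0.75 and 3.28 ± 0.35 (counting half-widths), and in HP1-rescue it had 3.62 ± 0.79 beside 3.63 ± 0.69 for the stretch between Ubx and abd-A. Abd-B had 3.31 ± 0.33, 2.43 ± 0.66, 2.51 ± 0.54 and 2.25 ± 0.25 in HP1-KD, HP1-rescue, H3K9M and control embryos. Ubx had 2.83 ± 0.26, 2.43 ± 0.47, 2.73 ± 0.44 and 2.10 ± 0.19. In control embryos abd-A thus stood above Ubx and Abd-B beyond counting error, and Ubx and Abd-B did not differ from each other. The interval of abd-A overlapped that of an adjoining stretch in each embryo map. The stretch between Ubx and abd-A had 3.18 ± 0.30 in control embryos. The stretch between abd-A and Abd-B had 3.97 ± 0.37 in HP1-KD and 3.52 ± 0.63 in H3K9M. The stretches beyond the Ubx 3′ end and beyond the Abd-B start had between 1.29 and 1.87 in the embryo maps.

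**Figure D5:**
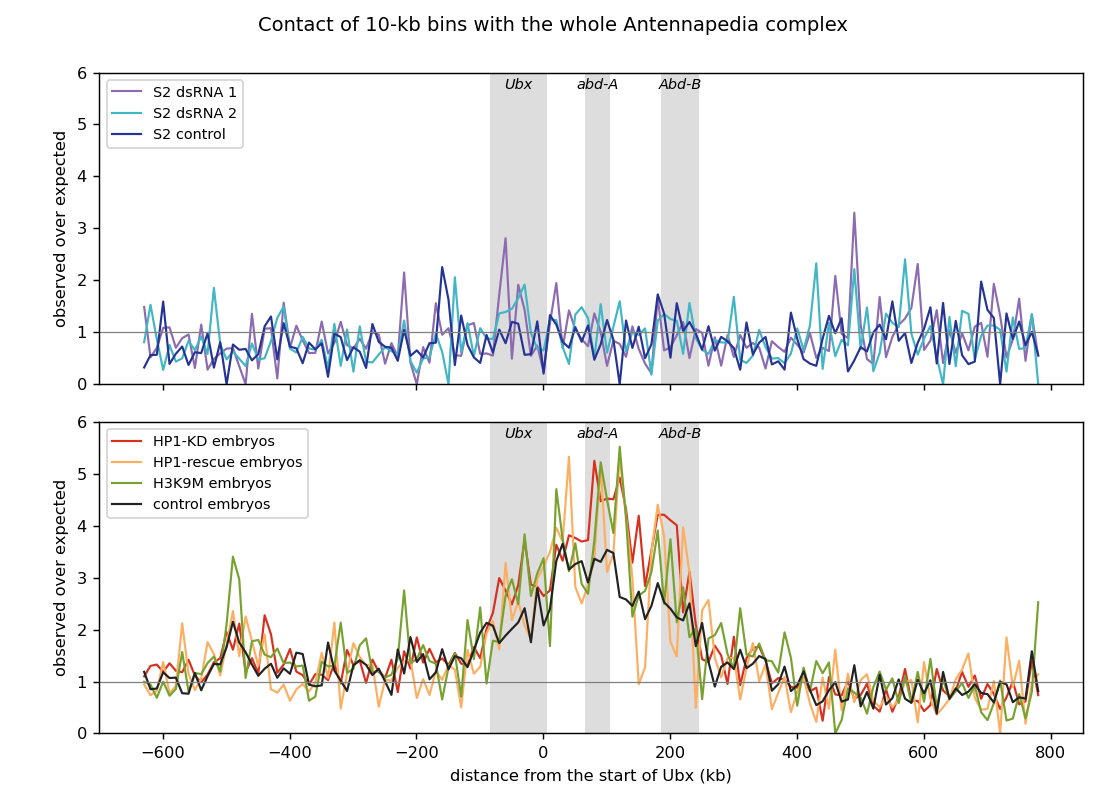
Observed over expected contact of each bin of the Bithorax complex and its flanks with the Antennapedia complex (y axis), by distance from the Ubx start in kb (x axis), for the S2 maps (upper panel) and the embryo maps (lower panel), with the genes shaded. All 33 bins from Ubx to Abd-B in control embryos lie between 1.68 and 3.65, and the medians on either side are 1.25 and 0.853.

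On the Antennapedia side, ftz, a pair-rule gene that lies between the homeotic genes Scr and Antp, had the highest contact with the Bithorax complex in each embryo map. Its 1 bin had 6.78 ± 1.02 in HP1-KD, 5.98 ± 2.06 in HP1-rescue, 5.24 ± 1.55 in H3K9M and 3.88 ± 0.72 in control embryos, from 193, 41, 46 and 127 contacts. The ftz interval lay above those of all other genes given here in HP1-KD alone. In each of the other embryo maps it overlapped that of at least 1 of them. Among these genes ftz had the widest gap between HP1-KD and control, with intervals that do not overlap, though its intervals are wider than those of Antp. Antp, which directs the development of the thorax, had 4.13 ± 0.30, 3.09 ± 0.56, 3.49 ± 0.50 and 3.09 ± 0.24 in the same maps, and its HP1-KD and control intervals do not overlap either. Scr, active in the labial segment and anterior thorax, had 3.26 ± 0.44, 3.04 ± 0.87, 2.89 ± 0.72 and 2.46 ± 0.34. Dfd, active in the head, had 2.81 ± 0.54, 2.07 ± 1.22, 3.32 ± 1.19 and 2.23 ± 0.44, and the bin shared by zen, a dorsal patterning gene, and bcd, the maternal anterior determinant, had 2.91 ± 0.74, 4.42 ± 2.18, 3.30 ± 1.33 and 2.64 ± 0.66. Over the 4 embryo maps, pb had 1.98 to 2.25, and lab, active in the anterior head, was the lowest of the genes in each map, at 1.14 to 1.82. In S2 control, ftz had 0.728 ± 0.65 from 5 contacts and Antp 1.01 ± 0.35 from 40 contacts.

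Over all 50-kb windows of 3R farther than 1 Mb, 28 of 508 (5.51%) had at least 1.5 with the locus in control embryos and 9 (1.77%) in S2 control. The 28 included all 7 windows of the Antennapedia complex from 6700001 to 7050000, at 2.14 to 3.00, and 26, 21 and 27 of the 28 also passed in HP1-KD, HP1-rescue and H3K9M. None of the 28 passed in any S2 map, but they were picked by their value in control embryos, which favours the embryo maps. The 4 highest in control embryos, at 3.00, 2.95, 2.92 and 2.90, lay in the Antennapedia complex, 3 of them over Antp or ftz and 1 over no protein-coding gene, and the fifth, at 2.57 (2.26 to 2.91), lay at 4950001 to 5000000 over plh, Jhbp2 and Ubc6. Of the 6 windows of the Antennapedia genes, 5 passed in control embryos (6 in H3K9M, where lab had 1.52) and 0 in each S2 map. None of 11 windows of other developmental regulators of the arm passed in any map, among them slou, tin, ems and hh, with a median of 1.16 in control embryos (all windows 0.764) and 0.927 in S2 control (all windows 0.821); pnr and srp lie within 1 Mb and have no value. The closest to the threshold was the window of lbl and lbe, at 1.49 in control embryos. In S2 control the 5 highest windows held CG34354 (1.81, from 8 contacts), Trc8 and ND-20L (1.77), kek6, CycG and Med (1.75), Dhc1, Dh44 and Unc-115a (1.65), and Dop1R2, Cap-D2 and dmrt99B (1.62). Only the last was also at 1.5 or more in both dsRNA maps, with 1.66 in dsRNA 1 and 2.66 in dsRNA 2.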

How the data were processed

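The authors pooled the libraries of each group and deposited 1 matrix of 10-kb bins per group, whose signal is the iteratively corrected contact scaled to the same sum in every map. HiC-Pro 2.11.1 and dm6 are credited to the submitters' processing notes. The correction factors were recovered so that whole contacts could be counted: values under 20 contacts were whole within 0.02. Contact was divided by the mean of usable 3R pairs at the same distance. Insulation scores used a 100-kb square of pairs across each bin. Each group was 1 map, so no test was made, and intervals (95%) cover counting error. Ligation products carry no molecular identifiers, so contacts may not be independent molecules. Per-sample columns not used numbered 0.

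Genes named were the members, genes overlapping a boundary bin, the Antennapedia list, a list of developmental regulators, and the 5 windows with the most contact with the locus in control embryos and in S2 control, with up to 3 genes each; Fas1 and tara were chosen after their values were seen. The members and lists were chosen with earlier results of these data known. Promoter windows and motif matches were read from the RefSeq genome and annotation of Release 6. The measures were tested on simulated data. Alternatives were no balancing, equal depth, pairs from 50 kb, 250-kb flanks, an expected level over 5 arms or from moved windows, a 50-kb square and a threshold of 0.25. The name of the HP1-KD map may mean that its pool lacks some libraries, and the S2 control map was assigned from its name. Scripts ran in Python 3.11.15 with pandas 2.3.3, numpy 2.4.6 and scipy 1.17.1; plots were drawn with matplotlib 3.10.9.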

Additional observations from a re-analysis of the deposited data

Results flagged for a closer look

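Isolation and mean boundary depth differed from control with opposite signs in HP1-KD embryos and in the dsRNA-treated S2 cells. Among the S2 maps this exceeded counting error for dsRNA 2 alone. Isolation from the flanks differed by -0.15 between HP1-KD and control embryos, and by 0.031 (S2 dsRNA 1) and 0.12 (S2 dsRNA 2) from S2 control, on the log2 scale. Mean boundary depth differed by -0.21 between HP1-KD and control embryos, and by 0.012 (S2 dsRNA 1) and 0.073 (S2 dsRNA 2) from S2 control. Its bins were chosen from calls in control embryos or S2 control, which favours those maps. They lie at both ends of the cluster, with neighbouring bins at each, and inside it. At the 3′ end of Ubx (bin from 16650001) the depth was 0.906 in HP1-KD and 1.45 in control embryos. At the Abd-B start (bin from 16970001) it was 0.195 and 0.200, so the ends did not change alike. The dsRNA 1 differences in isolation and in mean depth both lie within counting error of 0. Without balancing, the isolation difference was -0.033 in HP1-KD and -0.036 in S2 dsRNA 1, the same sign, and the difference between embryos and S2 cells was not tested.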

How the results depend on the processing

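All values are log2 differences unless stated otherwise. Without balancing, contact inside the locus was 0.31 (HP1-KD), 0.060 (HP1-rescue) and 0.18 (H3K9M) over control, and -0.12 (dsRNA 1) and -0.015 (dsRNA 2) over S2 control, both changes of sign; isolation was -0.033 (HP1-KD), 0.013 (H3K9M, a change of sign), -0.036 (dsRNA 1, a change of sign) and 0.27 (S2 control minus control embryos); HP1-rescue contact with the Antennapedia complex was 0.0031; and mean boundary depth was -0.18 (HP1-KD), -0.10 (HP1-rescue) and 0.41 (S2 control minus control embryos). At equal depth, contact inside was 0.23 (HP1-KD) and 0.11 (HP1-rescue), isolation -0.20, -0.14 and -0.12, and boundary depth -0.25, -0.088 and -0.11, each in HP1-KD, HP1-rescue and H3K9M. With pairs from 50 kb, contact inside was 0.30 (HP1-KD) and 0.98 (S2 control over control embryos). With 250-kb flanks, isolation of S2 control minus control embryos was 0.075, and with the expected level from moved windows its Antennapedia contact was -0.93. With a 50-kb square, boundary depth was -0.23 (HP1-KD) and 0.41 (S2 control minus control embryos), and 25 bins changed between S2 control and control embryos. At a threshold of 0.25, 18 bins changed in HP1-KD, against 37.0% of all bins. The cause of these shifts was not tested. The other values moved by less than their counting error, or for counts by less than 1.5 times.

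No paired analysis was possible because each group was 1 pooled map and no test was made. Depth limits the S2 values at long range most, with 163 to 233 contacts between the complexes. The spread between embryos or cultures of a group is unknown.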

Other observations

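Beyond the Antennapedia complex, 10 of the 28 windows at 1.5 or more with the locus in control embryos lay between 4800001 and 5350000 of 3R, close to the pericentromeric part of the arm, which was taken to end at 4200000. The contact of this whole stretch with the locus was 2.56 ± 0.12 in HP1-KD, 2.14 ± 0.24 in HP1-rescue, 2.45 ± 0.21 in H3K9M and 1.83 ± 0.10 in control embryos (counting half-widths), and 0.846 ± 0.15, 0.803 ± 0.13 and 0.713 ± 0.14 in S2 dsRNA 1, S2 dsRNA 2 and S2 control. Towards the telomere, 3 windows from 30750001 to 30900000 also passed in control embryos, and together had 1.74 ± 0.22, 1.96 ± 0.45, 2.01 ± 0.39 and 1.91 ± 0.21 in the same embryo maps, and 1.11 ± 0.26, 1.03 ± 0.25 and 1.06 ± 0.28 in the S2 maps. Both stretches were chosen after their values were seen.

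Within the flank towards the centromere, tara, a trithorax group gene, stood out in the contact with the Antennapedia complex and was picked for it. It held the highest bin of this flank in HP1-rescue, H3K9M and control embryos. In HP1-KD embryos tara did not hold the highest bin, which had 2.27. Its bins (16220001 to 16270000) had 1.66 ± 0.23 in HP1-KD, 1.78 ± 0.46 in HP1-rescue, 2.15 ± 0.49 in H3K9M and 1.69 ± 0.21 in control embryos, and 0.465 ± 0.22, 0.545 ± 0.23 and 0.584 ± 0.29 in S2 dsRNA 1, S2 dsRNA 2 and S2 control. With the Bithorax complex, tara had 1.09 ± 0.031, 1.04 ± 0.061, 0.967 ± 0.061 and 1.00 ± 0.036 in the same embryo maps, near the level of the arm.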
